A study of Mus musculus with 8 samples.

Results

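Matrix metalloproteinases (MMPs) are zinc-dependent proteases that cut collagens, proteoglycans and other proteins of the extracellular matrix, and the tissue inhibitors of metalloproteinases (TIMPs) bind their active sites. Most MMPs are secreted as inactive precursors, so a transcript level is not an activity. In tumours these genes are transcribed by fibroblasts, macrophages, neutrophils, endothelial cells and the tumour cells themselves. Here 10 of them, 7 MMPs and 3 TIMPs, were followed in the RNA of whole tumours. They were chosen by gene symbol, the probe set brightest on average stands for each, and they are 10 of the 18194 genes on the arrays with a probe set of their own.

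The tumours grew from MOPC, a carcinoma line of the mouse oropharynx, placed under the skin of C57BL/6 hosts that lacked Toll-like receptors 3, 7 and 9 (Tlr3/7/9-/-, KO) or were wild type (WT). The deletion was in the host and every group received the same tumour line, so RNA from the injected cells carries no deletion. There were 2 KO and 2 WT tumours at day 6 and 2 KO and 2 WT tumours at day 4, 8 Affymetrix arrays in all. The study's methods give an age of 6 to 17 weeks and both sexes for its WT and KO mice, and hosts in the day 6 experiment were 8 to 16 weeks old. Endosomal Toll-like receptors sense nucleic acids in immune and stromal cells, and the comparison of hosts asks how tumour tissue differs when the host lacks them.

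Values are linear MAS5 signals scaled to the same trimmed mean on every array. A gene was called when its adjusted p over 12976 tested genes was under 0.05 in limma's test of log2(signal + 16), where SE stands for the standard error of a log2 fold change, and all 10 members passed the filter on low signals. In whole-tumour RNA, fewer cells of a type and less RNA per cell cannot be told apart. The 9 epithelial markers were all above the filter. Their signals summed to 84963 in KO day 6 replicate 2 and to between 43276 and 55540 elsewhere. Skeletal muscle genes summed to a signal of 56255 in KO day 6 replicate 2, 23204 in KO day 4 replicate 2 and 142652 in WT day 4 replicate 2, against 766 to 1019 in the other 5 tumours. The cornified epidermis genes summed to 17035 in KO day 6 replicate 2 and to between 891 and 1156 elsewhere. Xist, which is transcribed from the inactive X chromosome of females, had signals of 5579.1 to 7121.0 at day 6 and 44.6 to 142.1 at day 4, while the Y-linked Eif2s3y had 10.2 to 33.0 at day 6 and 798.1 to 1176.7 at day 4. The day of the tumour and the sex of the host therefore cannot be told apart.

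Of the 10 members, 4 lie close together on mouse chromosome 9 in the order Mmp13, Mmp12, Mmp3 and Mmp10, with Mmp1b and Mmp1a between them. The 150 bases before an annotated start site of each are shown because the genes are neighbours, share a motif there and yet had different patterns over the 8 tumours. They are from RefSeq on GRCm38.p6, all on the plus strand, at chr9:7272364-7272513, chr9:7347224-7347373, chr9:7445672-7445821 and chr9:7502192-7502341. Capitals mark the AP-1 motif, searched as TGACTCA and its reverse complement TGAGTCA, and the TATA motif, searched as TATAAA and its reverse complement TTTATA.
Mmp13: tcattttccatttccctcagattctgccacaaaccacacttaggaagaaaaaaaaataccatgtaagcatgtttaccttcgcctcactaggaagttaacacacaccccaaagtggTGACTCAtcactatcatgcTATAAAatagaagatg
Mmp12: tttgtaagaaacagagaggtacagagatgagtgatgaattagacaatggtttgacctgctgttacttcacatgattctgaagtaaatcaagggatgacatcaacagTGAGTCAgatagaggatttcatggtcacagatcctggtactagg
Mmp3: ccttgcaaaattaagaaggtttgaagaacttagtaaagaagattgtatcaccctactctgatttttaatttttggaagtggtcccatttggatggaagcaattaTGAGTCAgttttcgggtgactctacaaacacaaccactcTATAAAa
Mmp10: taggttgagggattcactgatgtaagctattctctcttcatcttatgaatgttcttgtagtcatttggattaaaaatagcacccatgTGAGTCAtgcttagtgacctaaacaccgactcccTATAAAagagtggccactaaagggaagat
The AP-1 motif began 35 bases before the start of Mmp13, 44 before that of Mmp12, 46 before that of Mmp3 and 63 before that of Mmp10, and it overlapped no TATA motif. The AP-1 motif was present in 2.84% of the 32851 windows of the same length in the table, the TATA motif in 7.57%, and both together in 0.31%. Both were present at Mmp13, Mmp3 and Mmp10. The table gives Mmp12 a second start, whose window held neither motif and is not shown. The shared motif therefore holds only for the Mmp12 start that is shown. The windows of Mmp14, Timp1, Timp2 and Timp3 held neither motif, and 8 of the 10 members were in the table (not Mmp2 and Mmp9). A match describes letters and is not evidence of binding.

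Between KO and WT tumours, 0 of the 10 members were called at day 6, at day 4 or over both days. Over all tested genes, 0.0154% were called at day 6, 0.0154% at day 4 and 0.0308% over both days. At an unadjusted p under 0.05 there was 1 member at day 6, Mmp3, and there were 2 at day 4 and 2 over both days, Mmp3 and Mmp12. Such a p was reached by 6.35% of all genes at day 6, 7.11% at day 4 and 8.69% over both days. The difference with the smallest p among the members was in Mmp3.

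Mmp3, stromelysin-1, cuts proteoglycans, fibronectin and type IV collagen and activates other MMPs. Its signals were 2456.6 and 2445.5 in KO tumours at day 6, against 5200.2 and 5290.2 in WT tumours. At day 4 they were 3215.9 and 3337.2 in KO tumours, against 6259.3 and 11055.7 in WT tumours. Every KO tumour was below every WT tumour of its own day, and the WT tumours of day 4 were the most unlike each other. The log2 fold change was -1.09 (SE 0.22, adjusted p = 0.704, limma) at day 6 and -1.34 (SE 0.22, adjusted p = 0.342) at day 4. Over both days it was -1.22 (SE 0.16, 95% interval -1.58 to -0.85), a signal in KO tumours 0.43 times that of WT tumours, with an adjusted p of 0.0806. Mmp3 had rank 7 by p among the 12976 genes in that comparison. Of all genes, 4.72% lay lower in every KO tumour within both days, and Mmp3 was the one member that did.

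Mmp3 was called in these comparisons under 3 alternatives. Without WT day 4 replicate 1 it was called at day 6 (log2 fold change -1.09), at day 4 (-1.75) and over both days (-1.42). Without WT day 4 replicate 2 it was called at day 6 (-1.09) and over both days (-1.01), and the value at day 4 was -0.93. In both of these settings WT tumours at day 4 were represented by 1 tumour, assumed to vary like the other groups. The log2 fold change at day 6 stayed at -1.09, and what changed there was the estimate of spread that all groups share. With arrays centred on their median Mmp3 was called over both days (-1.15, adjusted p = 0.034, limma). WT day 4 replicate 2, whose Mmp3 signal of 11055.7 was the highest, was also the tumour with the highest muscle signal (142652). Alternatives other than leaving out 1 array gave Mmp3 values of -1.34 to -0.96 at day 4. Over all alternatives the adjusted p over both days lay between 0.000654 and 0.531. The exact permutation test within days gave p = 0.0556 for Mmp3 over both days (two-sided), the smallest that 4 against 4 tumours in 2 days allow, and 2 against 2 tumours cannot go below 0.333.

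Macrophage markers had values that ran in the direction of Mmp3. Over both days, 7 of 9 had a negative log2 fold change, 0 were called, and the median was -0.50, against 0.00 over all genes. Their summed signal was 99676 and 104798 in KO tumours at day 6, against 122332 and 124244 in WT tumours, and at day 4 it was 92108 and 84893 in KO tumours, against 111366 and 147601 in WT tumours. Adgre1, which encodes the macrophage surface protein F4/80, had signals of 4059.1 and 3246.6 in KO and 5444.4 and 5658.2 in WT tumours at day 6, and of 4112.0 and 4402.0 in KO and 6867.4 and 8908.1 in WT tumours at day 4. Msr1, a scavenger receptor, ran the other way, with 8227.7 and 7281.7 in KO and 4552.1 and 4637.3 in WT tumours at day 6, and 5448.8 and 3889.6 in KO and 2766.9 and 2598.6 in WT tumours at day 4. Of 9 fibroblast markers, 7 also had a negative log2 fold change over both days, with a median of -0.06, and 0 were called. At day 4 their median was -0.23, against 0.01 over all genes. The part of macrophage or fibroblast RNA in the result on Mmp3 was not tested. Across the 8 tumours, the tested genes most like Mmp3 were Podn (Pearson's r = 0.981) and Adgre1 (r = 0.977), given as a description over arrays that share their day and host genotype.

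Mmp12, macrophage elastase, degrades elastin and is a typical product of macrophages. At day 4 its signals were 2638.0 and 2715.7 in KO tumours, against 5312.1 and 6055.4 in WT tumours, so the groups did not overlap. At day 6 they were 6114.2 and 2629.4 in KO tumours, against 4280.2 and 8401.0 in WT tumours, and the groups overlapped. The log2 fold change was -1.08 (SE 0.39, adjusted p = 0.627, limma) at day 4 and -0.58 (SE 0.39, adjusted p = 0.856) at day 6. Over both days it was -0.83 (SE 0.28, 95% interval up to -0.19, adjusted p = 0.481). Without KO day 6 replicate 2, the value at day 6 was 0.03.

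**Figure D1:**
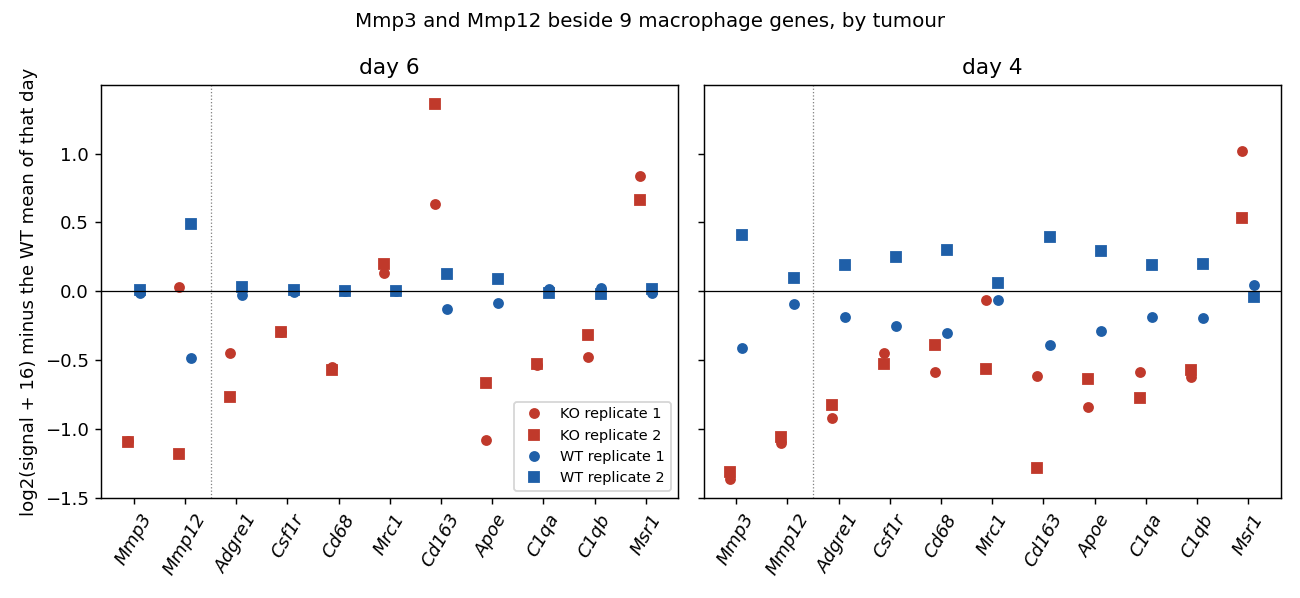
Each point is a tumour: log2(signal + 16) minus the WT mean of the same day, for Mmp3, Mmp12 and 9 macrophage genes at day 6 (left) and day 4 (right), KO in red and WT in blue. Mmp3 lies lower in both KO tumours of each day, with log2 fold changes of -1.09 at day 6 and -1.34 at day 4, while Msr1 lies higher in KO tumours.

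The other MMPs had smaller or less repeatable differences between hosts. Mmp10, stromelysin-2, is a close relative of Mmp3. Its signals were 292.3 and 241.5 in KO tumours, against 154.9 and 179.9 in WT tumours at day 6, and 206.0 and 158.2 in KO tumours, against 193.4 and 61.3 in WT tumours at day 4. Its log2 fold change was 0.62 (SE 0.45, adjusted p = 0.863) at day 6 and 0.63 (SE 0.45, adjusted p = 0.862, limma) at day 4. The day 4 value rested on WT day 4 replicate 2, the tumour at 61.3, and was -0.09 without it.

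Mmp13, collagenase-3, cuts fibrillar collagens. At day 6 it had signals of 5927.0 and 2549.6 in KO tumours, against 1933.8 and 4028.7 in WT tumours, and the log2 fold change was 0.48 (SE 0.41). At day 4 it had 1212.0 and 1364.1 in KO tumours, against 1744.6 and 1731.2 in WT tumours, and the log2 fold change was -0.43 (SE 0.41). The KO tumours of day 4 were both below the WT tumours, and those of day 6 overlapped with them. The difference between the effects, day 6 minus day 4, was 0.91 (SE 0.58, adjusted p = 0.995, limma), and for all 10 members it lay between -0.32 and 0.91 with 0 called. Over all genes 0 were called in that comparison by limma (0.0%), with 568 (4.38%) at an unadjusted p under 0.05.

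Mmp9, gelatinase B, is stored in neutrophil granules and degrades denatured collagen and type IV collagen. At day 6 it had 532.3 and 2260.1 in KO tumours, against 770.3 and 610.6 in WT tumours, so that 1 KO tumour was the highest of all and the other the lowest of its day. The ratio of these KO tumours was 4.25, the largest of any member within a group. The log2 fold change was 0.67 (SE 0.60) and turned to -0.36 without KO day 6 replicate 2. That tumour held cornified epidermis and muscle genes and the highest summed epithelial signal, and their part in the value was not tested. At day 4 the signals were 264.3 and 294.9 in KO tumours, against 337.4 and 147.9 in WT tumours.

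Mmp2, gelatinase A, had a log2 fold change of 0.00 at day 6 and of -0.40 (SE 0.18, adjusted p = 0.727, limma) at day 4, where both KO tumours, 6121.3 and 6965.5, were below both WT tumours, 7411.6 and 10003.5. Mmp14, the membrane-anchored protease that activates the precursor of Mmp2, had -0.17 (SE 0.13) at day 6 and 0.01 (SE 0.13) at day 4. Its 3 probe sets ranged from -0.66 (unadjusted p = 0.0248, limma) to -0.17 at day 6.

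**Figure D2:**
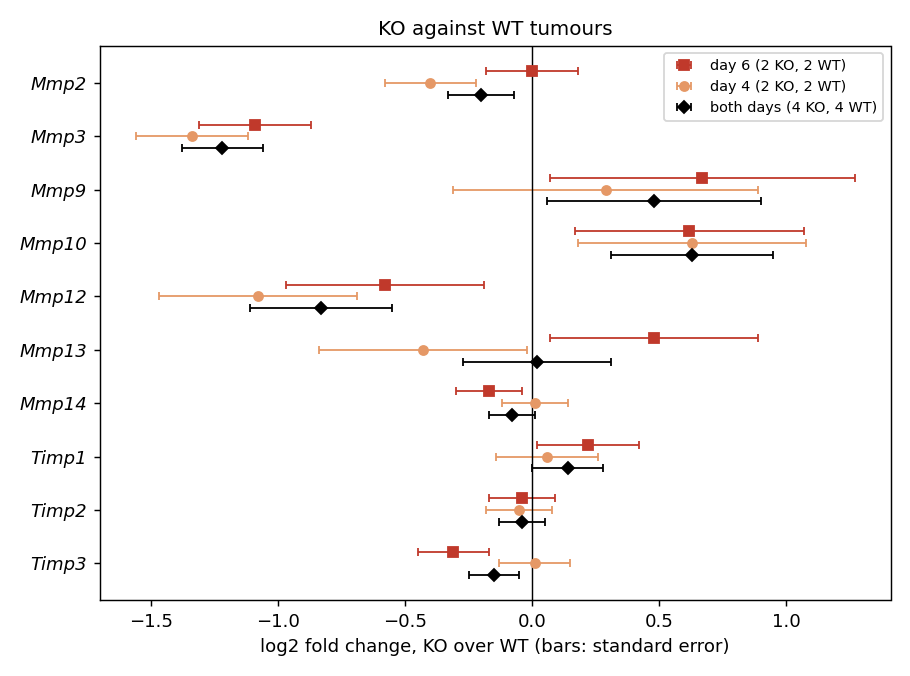
Log2 fold change of KO over WT tumours for the 10 members, with the standard error from limma as bars, at day 6 and day 4 (2 KO and 2 WT tumours each) and over both days. Mmp3 is at -1.09, -1.34 and -1.22, Timp2 lies close to 0 in all 3 comparisons, and the widest bars are those of Mmp9.

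None of the 3 TIMPs was called between hosts. Timp1, the inhibitor that responds to inflammatory cytokines, had 26772.2 and 27493.9 in KO tumours at day 6, against 22244.3 and 24352.0 in WT tumours, so that the groups did not overlap (log2 fold change 0.22, SE 0.20, adjusted p = 0.888, limma). At day 4 its KO tumours, 21290.5 and 19804.0, lay between the WT tumours, 25165.9 and 15428.9. Timp3, which is bound to the matrix and also inhibits several ADAM proteases, had 21524.1 and 18711.8 in KO tumours at day 6, against 22752.3 and 27069.8 in WT tumours (log2 fold change -0.31, SE 0.14, adjusted p = 0.796). Its 4 probe sets ranged from -0.85 to -0.17 at day 6, with an unadjusted p of 0.00963 at the lower end. At day 4 its log2 fold change was 0.01 (SE 0.14).

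Timp2, which inhibits MMPs and also takes part in the activation of Mmp2 on the cell surface, had signals between 19886.3 and 24323.2 in all 8 tumours. Its log2 fold change over both days was -0.04, with a 95% interval of -0.25 to 0.16. A change of the size seen for Mmp3 lay outside that interval, which is for the brightest probe set alone. The 6 probe sets of Timp2 ranged from -0.26 to -0.03 in that comparison. For a member with an interval as wide as that of Mmp9 over both days, -0.48 to 1.45, these arrays do not separate a rise from no change. Members whose KO and WT tumours did not overlap numbered 4 at day 6 (Mmp3 and Timp3 lower, Mmp10 and Timp1 higher) and 4 at day 4 (Mmp2, Mmp3, Mmp12 and Mmp13, all lower). Over all genes such separation was present in 37.0% at day 6 and 36.4% at day 4.

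**Figure D3:**
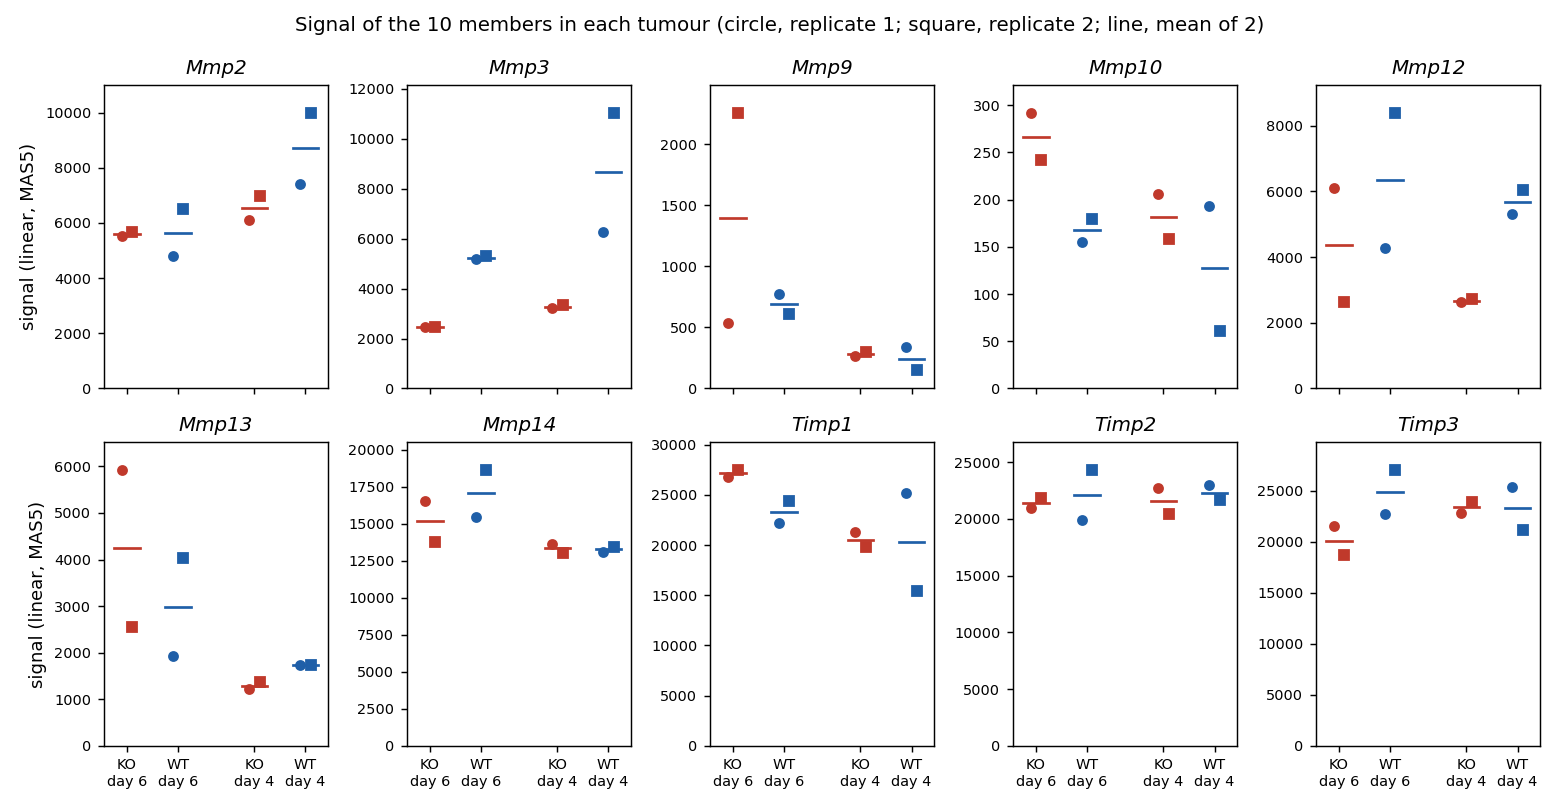
Linear signal of each member in each of the 8 tumours, with circles for replicate 1, squares for replicate 2 and lines for the mean of 2, by host and day. Mmp3 has its 2 KO tumours below its 2 WT tumours on both days, and Mmp9 and Mmp13 have all 4 tumours of day 6 above all 4 of day 4.

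Between the days, 4 of the 10 members were called over both genotypes, against 23.2% of all genes. Mmp9 and Mmp13 were higher at day 6 and Mmp2 and Mmp3 were lower, which is 2 members in each direction, against 13.6% of genes higher and 9.56% lower. These calls were not equally stable. Without KO day 4 replicate 1 or without KO day 4 replicate 2, 0 members were called, while 1356 and 1163 genes were. With the 3 tumours that held muscle genes left out together, 2 members were called, Mmp9 and Mmp13.

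Mmp9 had signals of 532.3 and 2260.1 in KO tumours and 770.3 and 610.6 in WT tumours at day 6, against 264.3 and 294.9 in KO tumours and 337.4 and 147.9 in WT tumours at day 4. All 4 tumours of day 6 were above all 4 of day 4. Day 6 over day 4 gave a log2 fold change of 1.73 (SE 0.42, adjusted p = 0.022, limma), a signal 3.32 times as high. In KO hosts it was 1.92 (SE 0.60, adjusted p = 0.0889) and in WT hosts 1.54 (SE 0.60, adjusted p = 0.15). The KO value rested on the tumours of day 6, which lay far apart: it was 2.95 without KO day 6 replicate 1 and 0.89 without KO day 6 replicate 2. In WT hosts it was 0.99 without WT day 4 replicate 2. Over both genotypes leaving out 1 array gave 1.22 to 2.25, and leaving out the 3 tumours with muscle genes gave 0.98, which was still called. Its other probe set gave 2.12 over both genotypes. The call was lost without WT day 6 replicate 1 and without either KO tumour of day 4 (log2 fold change 1.65 to 1.77, adjusted p = 0.0716 to 0.0843). Neutrophil markers did not follow the day in every tumour: the summed signal of 8 genes was 7923 and 6148 in KO and 4349 and 3644 in WT tumours at day 6, and 1842 and 4848 in KO and 12151 and 1298 in WT tumours at day 4. Of the 6 of these genes tested, 0 were called between the days.

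Mmp13 had 5927.0 and 2549.6 in KO tumours and 1933.8 and 4028.7 in WT tumours at day 6, against 1212.0 and 1364.1 in KO tumours and 1744.6 and 1731.2 in WT tumours at day 4. The 4 tumours of day 6 were again above the 4 of day 4. The log2 fold change was 1.13 (SE 0.29, adjusted p = 0.0256, limma), with 1.58 (SE 0.41, adjusted p = 0.0571) in KO hosts and 0.68 (SE 0.41, adjusted p = 0.338) in WT hosts. Its call was lost without KO day 6 replicate 1 and without WT day 6 replicate 2, its highest tumours of that day, and without either KO tumour of day 4 (0.83 to 1.17, adjusted p = 0.0545 to 0.0888). Leaving out 1 array moved the value in KO hosts to between 0.98 (without KO day 6 replicate 1) and 2.19 (without KO day 6 replicate 2), and that in WT hosts to between 0.15 (without WT day 6 replicate 2) and 1.21 (without WT day 6 replicate 1). The tested gene most like Mmp13 over the 8 tumours was Ccl7, a monocyte chemokine (r = 0.946).

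Mmp2 was lower at day 6, with 5520.7 and 5665.8 in KO tumours and 4794.6 and 6494.5 in WT tumours, against 6121.3 and 6965.5 in KO tumours and 7411.6 and 10003.5 in WT tumours at day 4. The day 6 tumours were below those of day 4 within each genotype, with overlap across them. Its log2 fold change was -0.42 (SE 0.13, adjusted p = 0.0483, limma). Mmp3 had a log2 fold change of -0.54 (SE 0.16, adjusted p = 0.041), with -0.42 in KO hosts and -0.66 in WT hosts. Each call was lost in 11 of 20 alternatives, over which the adjusted p ranged from 0.0219 to 0.338 for Mmp2 and from 0.00333 to 0.188 for Mmp3. Both were lost with no filter on low signals, with no trend in the fit and with the 3 muscle arrays left out. Each was lost in 6 of the 8 fits that left out 1 array, and these differed in 1 fit. Mmp2 alone was lost without WT day 4 replicate 2, and Mmp3 alone without WT day 6 replicate 2. Both were also lost when arrays were centred on their median, with -0.25 (adjusted p = 0.146) for Mmp2 and -0.36 (adjusted p = 0.0729) for Mmp3. Without the muscle arrays the values were -0.28 for Mmp2 and -0.32 for Mmp3. The median log2 fold change of all genes was 0.174 with centring and -0.002 without it. The share of called genes that were higher was 84.9% with centring and 58.7% without it.

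Mmp2 and Mmp3 are transcribed in fibroblasts. Of 9 fibroblast markers, 4 were called lower at day 6, among them Dcn (decorin, -0.78) and Fap (-0.96), 1, Pdgfrb, was called higher (0.92), and 4, the 3 collagen genes and Thy1, were not called. Of all genes, 9.56% were called lower and 13.6% higher. The median was -0.36, against 0.00 over all genes. The summed signal was 149384 and 142002 in KO and 132768 and 158332 in WT tumours at day 6, against 167091 and 159010 in KO and 187439 and 184632 in WT tumours at day 4. Their part in the values of Mmp2 and Mmp3 was not tested.

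Mmp14 had 16509.0 and 13783.0 in KO tumours and 15457.5 and 18635.4 in WT tumours at day 6, against 13647.5 and 13014.1 in KO tumours and 13098.3 and 13434.4 in WT tumours at day 4. It was the third member with all 4 tumours of day 6 above all 4 of day 4, beside Mmp9 and Mmp13, and 15.7% of all genes had this pattern. The log2 fold change of Mmp14 was 0.27 (SE 0.09, adjusted p = 0.0733, limma), and it was called with quantile normalization (0.32) and with median centring (0.44). For Timp1 it was 0.32 (SE 0.14, adjusted p = 0.136), and it was called with quantile normalization (0.40). Leaving out 1 array gave Timp1 values of 0.14 to 0.50, the highest without WT day 4 replicate 1.

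With all arrays the remaining members were not called between the days. Mmp10 had a log2 fold change of 0.52 (SE 0.32, adjusted p = 0.262, limma) and Mmp12 of 0.33 (SE 0.28, adjusted p = 0.424). Leaving out 1 array gave Mmp10 values of 0.16 to 0.88, the highest without WT day 4 replicate 1. Timp2 had -0.01 (95% interval -0.22 to 0.19) and Timp3 had -0.06 (95% interval -0.29 to 0.16), and both signs turned with quantile normalization, to 0.06 and 0.01. Within either genotype alone, 0 members were called, while 5.83% of genes were called in WT hosts and 6.23% in KO hosts.

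The members also differed in how far the 2 tumours of a group lay apart. The higher tumour of a group was 1.05 to 1.22 times the lower one for Timp2, 1.05 to 1.20 times for Timp3 and 1.03 to 1.21 times for Mmp14. For Mmp3 it was at most 1.04 times in the KO groups, 1.02 times in WT tumours at day 6 and 1.77 times in WT tumours at day 4. For Mmp12 and Mmp13 the tumours of day 6 were further apart (1.96 to 2.33 times) than those of day 4 (1.01 to 1.14 times), in both genotypes. Across the 8 tumours, the correlation of log2 signals was -0.86 between Mmp3 and Mmp10 and 0.70 between Mmp2 and Mmp3, given as a description over arrays that share genotype and day.

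Several members had more than 1 probe set. For Mmp9 the probe sets gave 0.48 and 0.78 for KO over WT over both days, and those of Mmp2 gave -0.26 and -0.20. The 6 probe sets of Timp2 ranged from -0.26 to -0.03 and the 4 of Timp3 from -0.35 to -0.10, all with the same sign. Between the days they ranged from -0.70 to -0.01 for Timp2 and from -0.36 to -0.03 for Timp3. The 3 probe sets of Mmp14 ranged from -0.33 to -0.08 for KO over WT over both days and from 0.02 to 0.34 between the days, and in KO hosts the day gave values of either sign, from -0.31 to 0.27. Mmp3, Mmp10, Mmp12, Mmp13 and Timp1 had 1 probe set each, so no other probe set bears on their values.

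**Figure D4:**
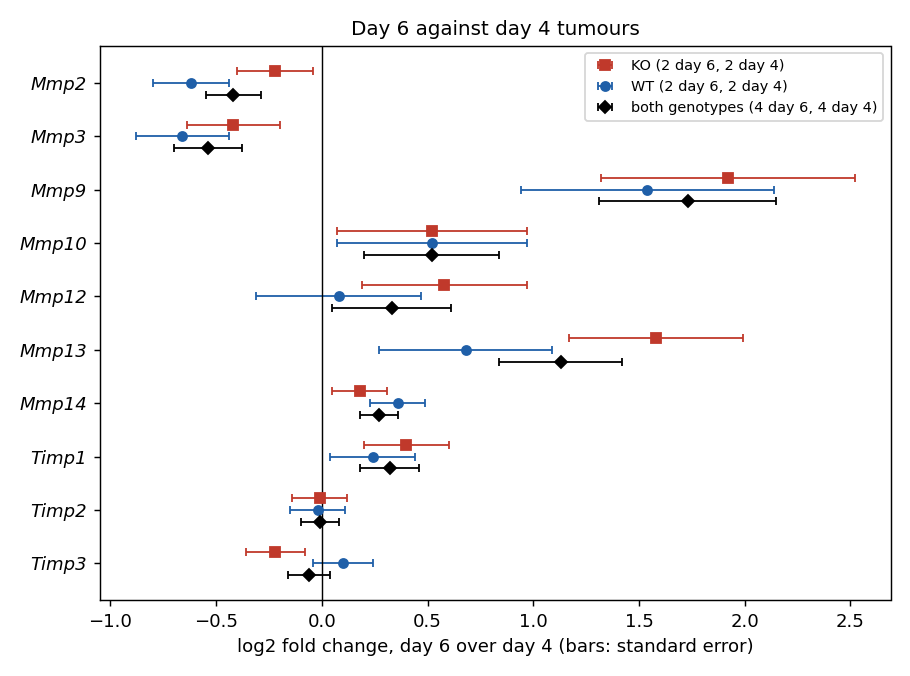
Log2 fold change of day 6 over day 4 for the 10 members in KO hosts, in WT hosts and over both genotypes, with the standard error from limma as bars. Over both genotypes Mmp9 is at 1.73 and Mmp13 at 1.13, Mmp2 is at -0.42 and Mmp3 at -0.54, and Timp2 is at -0.01.

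Other genes of matrix turnover were counted in the same fit. Between KO and WT tumours, 0 genes were called in any of these lists. Between the days, 23.2% of all genes were called, 13.6% higher and 9.56% lower. The calls in these lists are those of the fit with all arrays. They were not followed under the alternatives, in which members lost calls between the days. Of 7 tested MMPs outside the 10 (with Timp4), 2 were called lower at day 6 over both genotypes, Mmp19 (-0.84, SE 0.22, adjusted p = 0.0296, limma) and Mmp23 (-1.04, SE 0.22, adjusted p = 0.0129). Of 10 tested regulators of MMPs, 4 were called lower, namely Reck, a membrane-anchored inhibitor (-0.85), Bsg, an MMP inducer (-0.63), Thbs1 (-0.36) and Thbs2 (-0.64), and 0 higher. In plasminogen activation, 1 of 4 was called, the urokinase receptor Plaur (0.28). Of 12 ADAM and ADAMTS proteases, Adamts4 (0.94) and Adamts9 (0.55) were called higher, and Adamts1 (-0.64) and Adamts5 (-1.44) lower.

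Of 15 matrix substrates, 3 were called higher, Col4a1 (0.37), Col4a2 (0.52) and Lamb1 (0.36), and 3 lower, Lamc1 (-0.44), Dcn (-0.78) and Lum (-0.74). Of 6 cathepsins, Ctsd was called lower (-0.37). Among 10 cytokines known to induce MMP genes, 3 were called higher at day 6, Il1b (1.24), Il6 (1.06) and Osm (1.29), and Tgfa was called lower (-0.60). Among 13 AP-1 and other factors of MMP promoters, Fosl1 (0.36) and Ets1 (0.52) were called higher, and Fos (-0.91), Jund (-0.64) and Atf3 (-0.96) lower.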

How the data were processed

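For each array the authors deposited a linear signal intensity per probe set, made with MAS5, per the labels, whose version was not given in the sources used here. Every array held 45101 probe sets, with a 2% trimmed mean of 1000. RNA was 200 ng per array in the labels and 250 ng in the study's methods, which describe the tumours of day 6. Probe sets were named from the platform annotation, 34958 with 1 symbol, 932 with several (not used) and 9211 with none. A gene kept the probe set whose log2 signal averaged highest, and the 12976 genes at or above the 40th percentile (a signal of 78.6) were tested.

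The test was limma (version 3.58.1, under R 4.3.3) on log2(signal + 16), with 4 groups, 4 residual degrees of freedom and a trend on the mean signal, with Benjamini-Hochberg adjustment over all genes tested. Fold changes on this scale understate those of low signals. Precision is limited by the number of arrays. The p-values rest on the spread within groups, pooled over the 4 groups and moderated with a prior from all genes (median prior degrees of freedom 4.44). The study describes the day 6 arrays as a pilot experiment with 4 mice, so the day 6 spread is between mice. No label states that the tumours of a group came from separate experiments, and the study does not give the number of mice for the day 4 arrays. The day 4 tumours of a genotype differed in content. Their summed muscle signals were 925 and 23204 in KO and 873 and 142652 in WT tumours. Groups came from the sample labels. Named genes are the 10 members and up to 4 genes of each list, with Podn and Ccl7 named as most alike and a few list genes beyond 4 named where all calls of a list are given. Members and lists were chosen with earlier results of these data known. Alternatives were quantile normalization, median centring, pseudocounts of 1 and 64, signals floored at their 20th percentile, a filter at the 60th percentile or none, other choices of probe set, no trend, the compared groups alone, the t-test of the study's methods, the replicate number as a block and leaving out each array. Leaving out the 3 arrays with muscle genes and crossing the replicate numbers in WT were chosen after seeing the data.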

Additional observations from a re-analysis of the deposited data

How the results depend on the processing

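Counts of members called moved as follows. Leaving out 1 array gave 0 to 1 called for KO against WT at day 6, 0 to 1 at day 4 and 0 to 1 over both days (Mmp3 each time), 0 to 2 for day 6 against day 4 in WT, 0 to 2 in KO and 0 to 6 over both genotypes, where all arrays gave 4. Median centring gave 1 over both days for KO against WT (Mmp3) and 1 for the days in KO (Mmp13). A filter at the 60th percentile, which left out Mmp10, gave 1 for the days in KO (Mmp13), and the compared groups alone gave 3 (Mmp3, Mmp13 and Timp1). Over both genotypes, no filter gave 2 (Mmp9 and Mmp13), no trend 1 (Mmp9) and leaving out the 3 arrays with muscle genes 2 (Mmp9 and Mmp13). Of 1473 values of members under alternatives, 1331 kept their direction and side of the threshold, 30 lost a call, 26 gained one and 86 turned sign. The cause was not tested. The log2 fold changes that turned sign were these. With quantile normalization they were Mmp2 -0.03 for KO against WT at day 6, Mmp14 -0.01 for KO against WT at day 4, Timp2 0.06 for day 6 against day 4 in WT, Timp2 0.05 for day 6 against day 4 in KO, Timp2 0.06 and Timp3 0.01 for day 6 against day 4 over both genotypes, Timp2 -0.01 for the difference of the KO effects. With the mean of all probe sets they were Mmp2 -0.02 for KO against WT at day 6, Mmp14 -0.01 for KO against WT at day 4, Timp2 -0.08 for the difference of the KO effects. Without the 3 arrays with muscle genes (chosen after seeing the data) they were Mmp2 -0.02, Mmp9 -0.36 and Mmp12 0.03 for KO against WT at day 6, Mmp9 -0.33, Timp1 -0.24 and Timp3 -0.15 for KO against WT at day 4, Mmp9 -0.35, Mmp14 0.01 and Timp1 -0.02 for KO against WT over both days, Mmp10 -0.19, Timp1 -0.11 and Timp3 -0.03 for day 6 against day 4 in WT, Mmp3 -0.13, Mmp9 -0.02, Mmp10 0.67 and Timp2 -0.05 for the difference of the KO effects. With median centring they were Timp2 0.02 for KO against WT at day 6, Timp2 0.03 for KO against WT at day 4, Timp2 0.02 for KO against WT over both days, Timp2 0.17 for day 6 against day 4 in WT, Timp2 0.16 for day 6 against day 4 in KO, Timp2 0.16 and Timp3 0.11 for day 6 against day 4 over both genotypes, Timp2 -0.01 for the difference of the KO effects. With a pseudocount of 64 they were Mmp10 0.07 for the difference of the KO effects. Ranges over leaving out 1 array, for values that turned sign in at least 1 of them, follow. For KO against WT at day 6 they were Mmp2 -0.22 to 0.22, Mmp9 -0.36 to 1.70, Mmp12 -1.18 to 0.03, Mmp13 -0.13 to 1.08 and Timp2 -0.19 to 0.10. For KO against WT at day 4 they were Mmp9 -0.26 to 0.85, Mmp10 -0.09 to 1.35, Mmp14 -0.03 to 0.04, Timp1 -0.29 to 0.41, Timp2 -0.12 to 0.03 and Timp3 -0.12 to 0.15. For KO against WT over both days they were Mmp9 -0.03 to 1.0, Mmp13 -0.28 to 0.33, Timp1 -0.04 to 0.32 and Timp2 -0.12 to 0.03. For day 6 against day 4 in WT they were Mmp10 -0.19 to 1.24, Mmp12 -0.40 to 0.57, Timp1 -0.11 to 0.59, Timp2 -0.16 to 0.13 and Timp3 -0.03 to 0.23. For day 6 against day 4 in KO they were Mmp12 -0.03 to 1.19 and Timp2 -0.09 to 0.06. For day 6 against day 4 over both genotypes they were Timp2 -0.09 to 0.06 and Timp3 -0.13 to 0.00. For the difference of the KO effects they were Mmp3 -0.16 to 0.66, Mmp9 -0.65 to 1.40, Mmp10 -0.72 to 0.71, Mmp12 -0.11 to 1.11, Timp1 -0.19 to 0.51 and Timp2 -0.14 to 0.15.

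Tumours with the same replicate number deviated together in 3 of 6 pairs of groups (correlations of 0.215 to 0.274, among the groups whose replicate 2 held muscle genes) and not in the 3 pairs with WT day 6 (-0.12 to -0.026), so the numbers were not taken to pair the tumours. With the replicate block, 0 members were called for KO against WT and 2516 genes between the days over both genotypes, against 3006 without it, 463 against 756 in WT hosts and 325 against 809 in KO hosts. With the WT numbers crossed, chosen after seeing the data, 2 members and 1435 genes were called between the days in WT, against 0 members and 10 genes with that block as numbered. Genes called over the alternatives ranged from 0 to 26 at day 6 and 0 to 11 at day 4 for KO against WT, where all arrays gave 2 each, from 1 to 58 over both days (4), from 0 to 1784 between the days in WT (756), from 1 to 1747 in KO (809), from 744 to 3912 over both genotypes (3006) and from 0 to 9 for the difference of the KO effects (0). The methods' t-test gave 760 and 815 genes for KO against WT at day 6 and day 4 at an unadjusted p under 0.05, and 0 and 0 after Benjamini-Hochberg adjustment. Between the days it gave 1399 genes in WT and 2627 in KO, and 0 and 1 after adjustment. With 2 tumours in a group, a difference that missed the threshold is not shown to be absent.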
